A study of Mus musculus with 16 samples.

Results

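ATP8 (mt-Atp8) and ATP6 (mt-Atp6) are the mitochondrial genes for subunits of ATP synthase, and they share part of their sequence in different reading frames. The alleles described here were all non-reference bases at positions 7766 to 8607 of the mouse mitochondrial genome (build GRCm38, mitochondrial chromosome, forward strand). Positions 7766 to 7926 belong to ATP8 only, positions 7970 to 8607 to ATP6 only, and the 43 positions between them, from the start codon of ATP6 to the stop codon of ATP8, are read in both frames. Each position has 3 possible non-reference alleles, which gave 2526 alleles at 842 positions, of 48897 alleles at 16299 positions in the whole mitochondrial genome. Of the 2526 alleles, 483 lay in ATP8 only, 129 in the overlap and 1914 in ATP6 only. An allele is written with the reference base, the position counted from the first base of the mitochondrial sequence and the non-reference base, followed by its protein change.

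The libraries were 16 bulk ATAC-seq libraries from femurs of mice aged 3 months, all homozygous for the D257A change in PolG, with no wild-type group. Each library came from 1 of 8 sorted subsets, labelled CD45, CD105, CD24, CD29, CD24_CD29, Thy, 6C3 and Thy_6C3, and each subset had a library numbered 1 and a library numbered 2. The labels do not say which mice gave a library, how many were pooled or what the number stands for. p-values therefore cover only how these 16 libraries vary, a spread that may be technical, and libraries of a number may share animals. Every group carried the PolG change, so no difference below bears on that change itself. The mitochondrial tables hold no marker genes, so the sorted identities were not checked against markers.

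ATP synthase makes ATP from ADP with the energy of protons flowing back across the inner mitochondrial membrane. ATP6 encodes subunit a, which forms the path of the protons beside the ring of c subunits, and ATP8 encodes a small membrane subunit of the same complex. Both are translated from a shared messenger RNA, on which the end of ATP8 overlaps the start of ATP6. The D257A change removes the proofreading activity of the polymerase that copies mitochondrial DNA, and mice with it gather point mutations in all mitochondrial genes.

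The overlap is shown first because a base change in it alters codons of both proteins at once. In the first line below, capitals mark the start codon of ATP6 and the stop codon of ATP8, and in the second line the base at 7953, the middle base of codon 63 of ATP8 and the last base of codon 9 of ATP6. The sequence runs from the base after 7926 to the base before 7970.
overlap, start and stop codons: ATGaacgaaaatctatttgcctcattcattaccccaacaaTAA
overlap, position 7953: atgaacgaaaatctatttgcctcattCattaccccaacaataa

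The next lines show 21 bases around alleles that differed between the numbers, with the variable base in capitals. The last line is position 8174, whose alleles were at like levels in both numbers. They are reference bases of the forward strand, taken from the deposited tables.
C7893T, ATP8 T43M, 7883 to 7903: aaatcactaaCaaccataaaa
T7827C, ATP8 F21S, 7817 to 7837: attaccctatTtatcttattt
T8300C, ATP6 L125P, 8290 to 8310: aaaagctcacTtgcccacttc
A8265T, ATP6 V113V, 8255 to 8275: ctggagccgtAattacaggct
A8266C, ATP6 I114L, 8256 to 8276: tggagccgtaAttacaggctt
A8174, ATP6 codon 83, 8164 to 8184: ggatcaacaaAtctcctaggc

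Mean coverage over the 842 positions ran from 6733 counts per position in CD24_CD29 replicate 2 to 77881 in CD29 replicate 1, and the lowest at any position was 4585. An allele with 0 counts could thus have a fraction of up to 0.00385% in CD29 replicate 1 and up to 0.0446% in CD24_CD29 replicate 2 (3 counts over the mean coverage). Such limits and the intervals below hold for counting error alone, as reads had no molecular identifiers. Thy replicate 2 stood apart: its mutation load (the non-reference fraction summed over the 3 bases and averaged over positions) was 1.13%, against 0.404% to 0.523% in the other 15 libraries, and 135 alleles reached 1% in it, against 4 to 18. Outside ATP8 and ATP6 its load was 1.11%, against 0.384% to 0.482%. Of the 127 alleles that reached 1% in Thy replicate 2 alone, 115 were A>C or T>G, so counts are given with and without this library. The annotation also holds a nuclear pseudogene, Gm10925, on chromosome 1 at 24613971 to 24614651 (build GRCm38), with the same length of 681 bases as ATP6. Its sequence was not used here, and what reads from it add to the ATP6 alleles was not tested.

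In every library, most alleles of ATP8 and ATP6 stayed under 1%, and a small set was carried by many subsets at once. An allele was counted in a library when its fraction was 1% or more with at least 5 counts. By this rule 186 of the 2526 alleles (7.36%) were counted in at least 1 library, against 7.13% over the whole genome. Without Thy replicate 2 these were 59 (2.34%), against 2.31% over the whole genome, so the 2 genes lay near the background in both counts. Of the 59, 6 lay in ATP8 only, 1 in the overlap and 52 in ATP6 only. Transitions made up 41 of the 59, among them 14 C>T, 13 T>C, 13 A>G and 1 G>A. C>T reached 1% at 6.33% of the possible alleles of the 2 genes and 6.19% of those of the genome, and G>A at 1.33% and 3.13%.

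The protein effects of the counted alleles had shares near those of all possible alleles. Of the 59, 39 exchanged an amino acid of 1 protein, 18 were synonymous, 1 made a stop codon, and 1, in the overlap, exchanged an amino acid of ATP8 and was synonymous in ATP6. Outside the overlap amino acid changes made up 67.2% of the 58 counted alleles and 70.1% of the 2397 possible ones. In ATP6, 15 lay at the first, 16 at the second and 22 at the third codon position. The map of these alleles along the 2 genes shows that none but that of the overlap had a mean above 5% in a number.

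**Figure D1:**
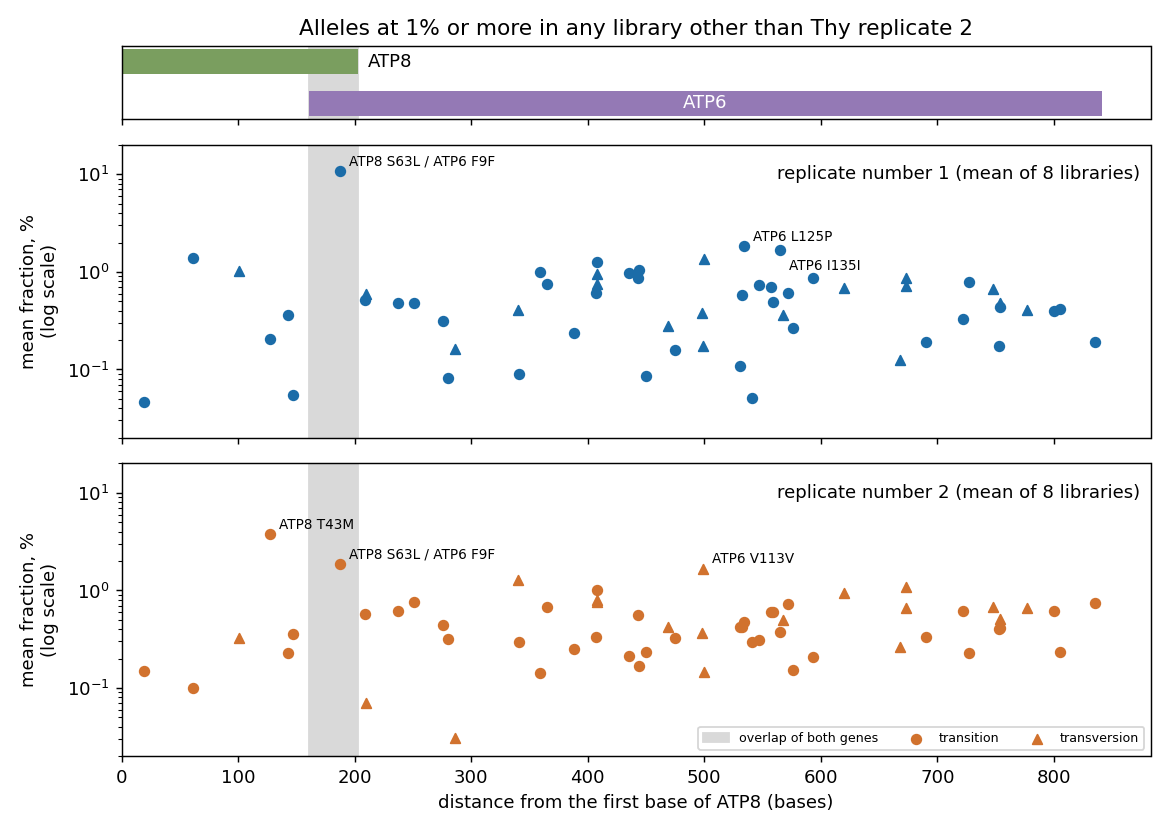
Mean allele fraction (%, log scale) of the 59 alleles that reached 1% outside Thy replicate 2, by distance in bases from the first base of ATP8, over the 8 libraries of number 1 (upper points) and number 2 (lower points). Circles are transitions and triangles transversions, the bars show the genes and grey the overlap. The allele of the overlap stands at 10.7% in number 1 and 1.86% in number 2, and ATP8 T43M at 3.76% in number 2.

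Alleles counted in both replicate numbers were a minority, as over the whole genome. In number 1, 32 alleles were counted in at least 1 library, and in number 2 36 without the Thy library, of which 9 were common to both. These 9 of the 59 made up 15.3%, and over the whole genome 116 of 1130 did (10.3%). 2 alleles were counted in all 8 libraries of number 1, C7953T and T8300C. 2 were counted in all 8 of number 2, C7953T and C7893T. C7953T was the 1 allele counted in all 16 libraries.

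C7953T changes serine 63 of ATP8 to leucine (S63L) and leaves phenylalanine 9 of ATP6 as it is (F9F). In number 1 its fraction was 11.4% in CD45, 12.8% in Thy, 10.98% in 6C3, 7.90% in Thy_6C3, 10.3% in CD105, 14.1% in CD24, 7.60% in CD24_CD29 and 10.9% in CD29. In number 2 the same subsets, in the same order, had 2.04%, 1.17%, 1.05%, 1.98%, 2.43%, 1.35%, 2.51% and 2.35%. Every library of number 1 lay above every library of number 2. Within number 1, CD24 was highest (95% exact Clopper-Pearson interval 13.6% to 14.6%) and CD24_CD29 lowest (7.17% to 8.05%). Within number 2, CD24_CD29 was highest (2.16% to 2.88%) and 6C3 lowest (0.952% to 1.16%), so that the subset at the bottom of one number stood at the top of the other.

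C7893T changes threonine 43 of ATP8 to methionine (T43M) and had the reverse pattern. In number 2 it ran from 2.71% in CD45 (2.44% to 3.00%) through a median of 3.79% to 4.49% in 6C3 (4.28% to 4.72%). In number 1 it ran from 0.0912% in CD29 through 0.149% to 0.421% in CD105. The 2 ranges did not overlap, and so the 2 highest alleles of ATP8 were each high in a different number.

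**Figure D2:**
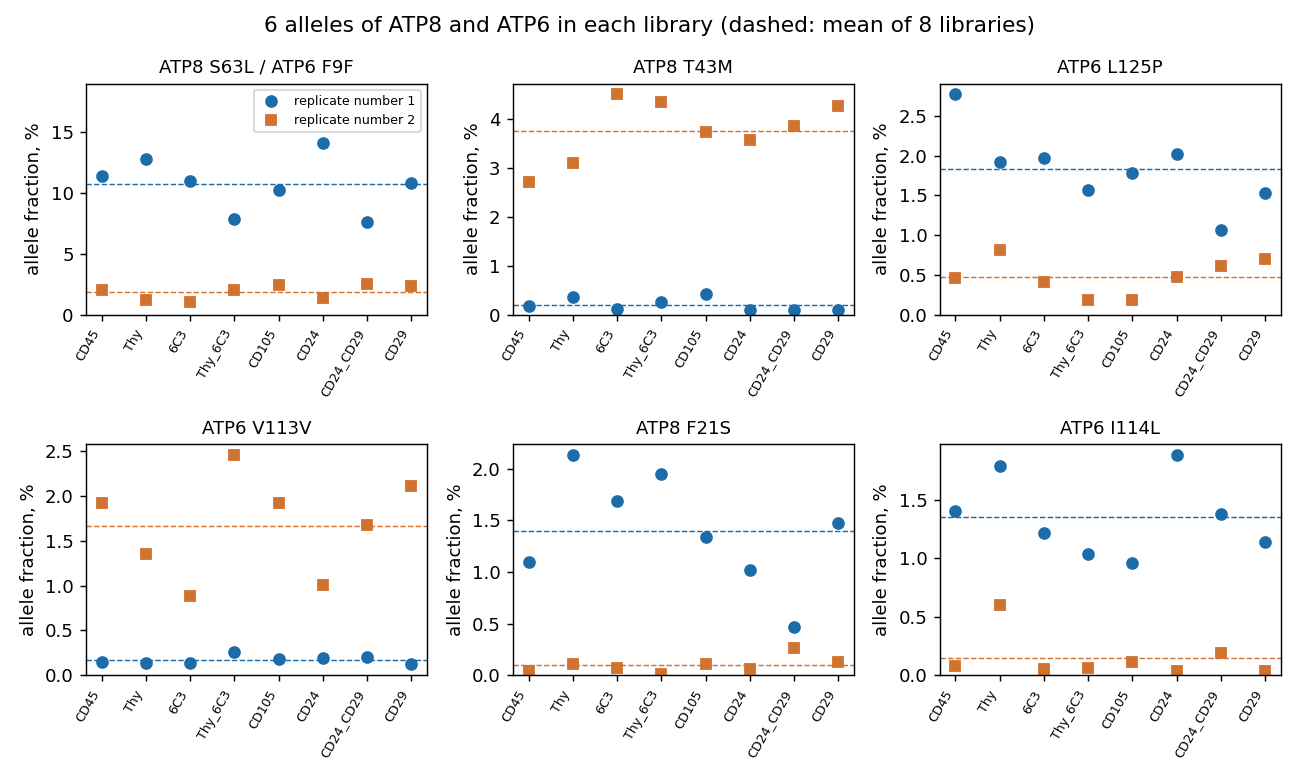
Allele fraction (%, linear axes from 0) of 6 alleles in each of the 16 libraries, with circles for number 1, squares for number 2, subsets along the horizontal axis and dashed lines at the mean of 8 libraries. In each panel all 8 points of one number lie above all 8 of the other, with the mean of ATP8 S63L / ATP6 F9F at 10.7% and 1.86% and that of ATP8 T43M at 0.203% and 3.76%.

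Replicate number was compared within subsets with edgeR's quasi-likelihood test on the non-reference and reference counts, over all 3487 alleles of the genome that reached 1% in any library. 18 of the 186 alleles of ATP8 and ATP6 tested (9.68%) passed at a Benjamini-Hochberg adjusted p under 0.05, against 5.82% of all alleles tested. 13 were higher in number 1 (6.99%, against 2.75% of all) and 5 higher in number 2 (2.69%, against 3.07%). 3 of the 35 tested alleles of ATP8 only passed, 1 of 11 in the overlap and 14 of 140 in ATP6 only, and 12 of the 18 were transitions. Apart from C7953T, each allele that passed reached 1% only in libraries of the number in which it was higher. Such an allele entered the test through those libraries. The calls, ranges and exact p-values are thus of alleles picked in part by being high there. The shares over all alleles tested come from the same filter. With all alleles of at least 5 counts in any library tested instead, only T7976G and T8601C lost their calls (adjusted p = 0.0965 and 0.343, edgeR). Without the Thy subset 16 of 57 passed, against 17.6% of all. DESeq2 called 19 of the 186, against 7.14% of all.

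Of the alleles of ATP8 that passed, C7893T (T43M) was higher in number 2 by 4.47 in the log2 odds ratio (adjusted p = 1.53e-06, edgeR), with means of 3.76% ± 0.622 and 0.203% ± 0.129 (SD, n = 8 libraries each). C7953T (S63L in ATP8, F9F in ATP6) was lower in number 2, with a log2 odds ratio of -2.71 (adjusted p = 4.87e-05, edgeR) and means of 10.7% ± 2.2 in number 1 and 1.86% ± 0.589 in number 2. Both held in all 8 subsets. T7827C changes phenylalanine 21 of ATP8 to serine (F21S). It ran from 0.463% in CD24_CD29 through a median of 1.41% to 2.13% in Thy in number 1, and from 0.0135% through 0.0881% to 0.264% in number 2. The ranges did not overlap, and the log2 odds ratio was -3.97 (adjusted p = 7.45e-05, edgeR). A7867T, synonymous in ATP8 (P34P), ran from 0.507% to 1.83% in number 1 and from 0.192% to 0.726% in number 2. Its ranges overlapped, and its log2 odds ratio was -1.67 (adjusted p = 0.00179, edgeR).

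In ATP6, 2 alleles of neighbouring bases stood on opposite sides. A8265T, which leaves valine 113 unchanged (V113V), ran from 0.130% through a median of 0.168% to 0.261% in number 1 and from 0.882% through 1.79% to 2.46% in number 2. A8266C, which changes isoleucine 114 to leucine (I114L), ran from 0.956% through 1.29% to 1.88% in number 1 and from 0.0368% through 0.0714% to 0.603% in number 2. Neither pair of ranges overlapped. The log2 odds ratios of number 2 against 1 were 3.23 for A8265T and -3.81 for A8266C (adjusted p = 4.12e-06 and 2.72e-05, edgeR). The value of 0.603% for A8266C was that of Thy replicate 2, and the other libraries of number 2 had at most 0.190%.

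T8300C, which changes leucine 125 of ATP6 to proline (L125P), was counted in all 8 libraries of number 1, from 1.06% in CD24_CD29 through a median of 1.86% to 2.78% in CD45. In number 2 it ran from 0.180% through 0.465% to 0.811%, and the ranges did not overlap. Its log2 odds ratio was -2.08 (adjusted p = 0.00119, edgeR). T8331C, synonymous at isoleucine 135 (I135I), ran from 0.625% in Thy through 1.51% to 2.46% in CD29 in number 1 and from 0.216% to 0.651% in number 2. Those ranges overlapped in the Thy library of number 1, and the log2 odds ratio was -2.18 (adjusted p = 0.000162, edgeR).

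The other ATP6 alleles that were higher in number 1 had means between 0.593% and 1.04% there. They exchanged an amino acid in A8125G (T67A), T8201C (F92S), C8210T (T95I), G8359A (E145K) and T7976G (F17C) and were synonymous in T8493C (A189A) and T8313C (L129L). Their log2 odds ratios lay between -3.69 (T7976G) and -1.39 (T8313C), with adjusted p from 7.72e-05 (A8125G) to 0.00826 (T8313C). The 3 other alleles that were higher in number 2 were C8106A (I60M), T8211G (T95T) and T8601C (N225N), with log2 odds ratios of 1.63, 1.70 and 1.87 and adjusted p of 0.00144, 0.00179 and 0.0276. T8211G, a T>G change, reached 1% in Thy replicate 2 alone (1.58%, next 0.966%) and so entered the test only through a library of the number in which it was higher. It was not among the alleles tested without the Thy subset, and with the same alleles but without Thy replicate 2 its log2 odds ratio was 1.55 (adjusted p = 0.000312, edgeR). T8601C lost its call without the Thy subset (adjusted p = 0.0682, edgeR) and when any 1 library of CD45, Thy, Thy_6C3, CD105 or CD24_CD29 was left out (adjusted p from 0.0506 to 0.160, edgeR). An exact two-sided permutation test over all 256 swaps of numbers within subsets used the same comparison and is no independent support for the 18 calls. The exact p was 0.0078125, the smallest this test can give, for 19 of the 186 alleles (10.2%), against 5.99% of all alleles tested. These were 17 of the 18 alleles called by edgeR and the uncalled A8488G and A8561C, and T7976G had an exact p of 0.015625.

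The libraries of number 1 and number 2 did not overlap at all for 11 of the 186 alleles tested (5.91%), against 3.58% of all alleles tested. Among alleles counted outside Thy replicate 2 these were 10 of 59 (16.9%), against 10.9% of all. The plot of the mean fractions shows the alleles that passed on both sides of the line of equal means.

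**Figure D3:**
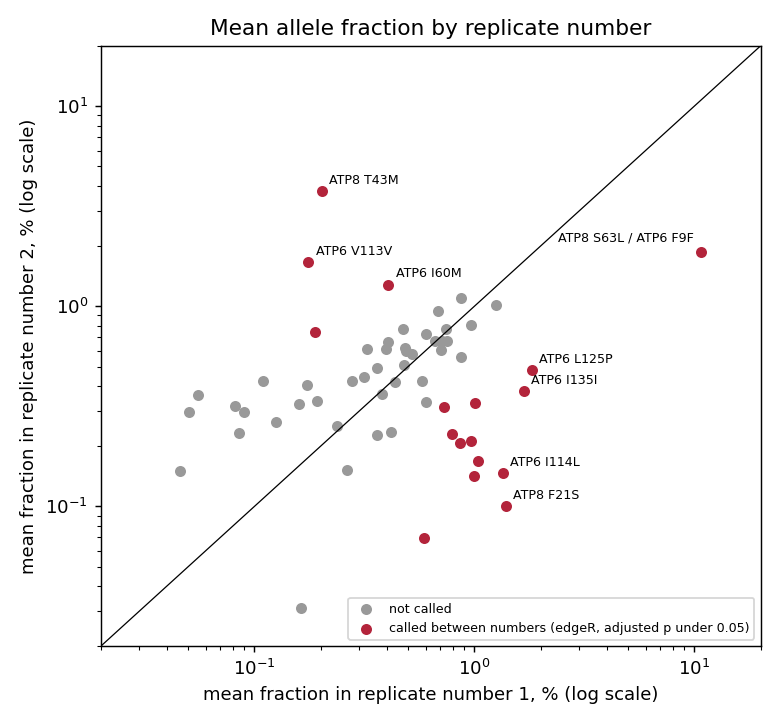
Mean fraction (%) of the 59 alleles counted outside Thy replicate 2 over the 8 libraries of number 1 (horizontal, log scale) and number 2 (vertical, log scale). The line marks equal means and red points are alleles called between numbers, of which ATP8 S63L / ATP6 F9F (10.7% and 1.86%) and ATP8 T43M (0.203% and 3.76%) lie farthest out.

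Other alleles were shared by both numbers at like levels. At position 8174, in codon 83 of ATP6, all 3 non-reference bases were counted outside Thy replicate 2, which occurred at 1 position of the genome. This position was singled out after its values were seen. A8174G (N83S) averaged 1.25% ± 0.689 in number 1 and 1.01% ± 0.608 in number 2, A8174T (N83I) 0.961% ± 0.284 and 0.805% ± 0.274, and A8174C (N83T) 0.746% ± 0.174 and 0.767% ± 0.306 (SD, n = 8 libraries each). The 3 together summed to between 1.504% and 4.94% in number 1 and between 1.41% and 4.71% in number 2. A8439C (M171I) had 0.867% ± 0.234 and 1.10% ± 0.264 and did not pass (adjusted p = 0.732, edgeR). Of 55 positions of the 2 genes with a counted allele, 3 had more than 1, namely 8174, 8439 and 8520. In the whole genome 22 of 1107 such positions did.

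Most of the possible alleles of the overlap change at least 1 of the proteins. Of the 129, 25 are synonymous in ATP8 and 26 in ATP6, 1 is synonymous in both, and 53 exchange an amino acid in both. In ATP8 only 23.8% of the possible alleles are synonymous, and in ATP6 only 24.2%. C7953T was the 1 allele of the overlap counted outside Thy replicate 2, and the 10 others were counted in that library alone, 9 of them A>C or T>G. The tenth was T7942A, which makes a stop codon of tyrosine 59 in ATP8 (Y59*) and changes phenylalanine 6 of ATP6 to isoleucine (F6I). It stood at 1.02% in Thy replicate 2 and between 0.172% and 0.321% in the other 15 libraries.

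Among other transitions of the overlap, given as examples chosen after their values were seen, A7957G is synonymous in ATP8 (L64L) and changes ATP6 (T11A), with 0.476% ± 0.279 in number 1 and 0.243% ± 0.128 in number 2 (SD, n = 8 libraries each). T7942C (Y59Y in ATP8, F6L in ATP6) had 0.428% ± 0.212 and 0.202% ± 0.0974. T7956C changes ATP8 (L64S) and is synonymous in ATP6 (I10I), and had 0.377% ± 0.251 and 0.380% ± 0.271. These levels lie well under those of C7953T in number 1 and, in number 2, under its lowest library (1.05%).

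C7953T was the largest single part of the transition load of the overlap in number 1. It made up 55.4% to 69.4% of the transition load of the overlap in number 1 and 12.4% to 46.3% in number 2. With it, the transition load of the overlap was 0.272% to 0.471% in number 1 and 0.126% to 0.239% in number 2, ranges that did not overlap. Without it, the ranges were 0.0952% to 0.189% and 0.0677% to 0.184%, which overlapped. The bars by subset show the same split.

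**Figure D4:**
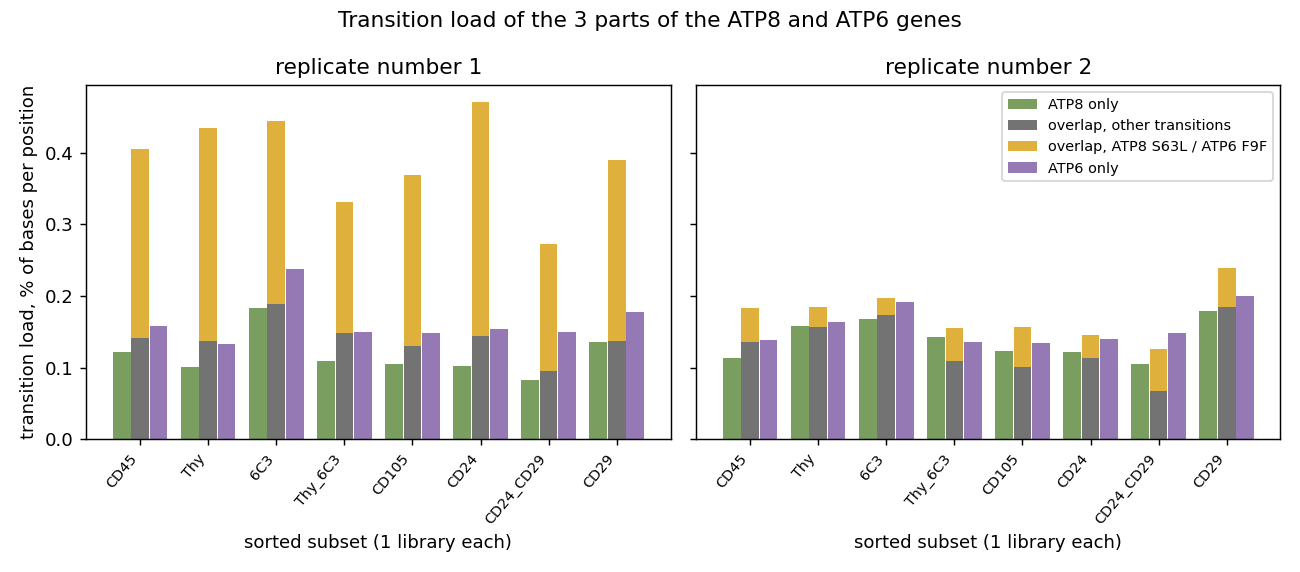
Transition load (%, the fraction of transitions averaged over positions) of ATP8 only, the overlap and ATP6 only in each library, number 1 on the left and number 2 on the right. The yellow part of the overlap bar is C7953T (ATP8 S63L / ATP6 F9F), which makes up 55.4% to 69.4% of the bar in number 1, and the ATP6-only bars of 6C3 and CD29 are the highest of their number.

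The load was compared between subsets in an exact permutation test of the share of variance that lies between subsets, one-sided over all pairings of the 16 libraries. Neither the load of the whole stretch (p = 0.367), nor that of ATP8 only (p = 0.488), the overlap (p = 0.378) or ATP6 only (p = 0.443), nor the number of counted alleles (p = 0.274) passed, with an adjusted exact p of 0.488 for all 5 measures. With the number as a block and without the Thy subset, the adjusted exact p was 0.0412 for the whole stretch and for ATP6 only, and with Thy it was 0.462. Neither block setting was among those planned. CD24 had the lowest load of each number in the 2 genes (0.449% and 0.404%) and also outside them (0.402% and 0.384%). The load outside over all changes was not tested. Without Thy replicate 1, which leaves Thy replicate 2 as the only Thy library, the adjusted exact p was 0.00729 for all measures but the overlap.

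The highest transition loads of ATP8 and ATP6 were those of 6C3 (0.238% and 0.188% in numbers 1 and 2) and CD29 (0.181% and 0.198%), and the other 12 libraries lay between 0.134% and 0.164%. Outside the 2 genes the same subsets were highest within each number, 6C3 at 0.207% and 0.175% and CD29 at 0.154% and 0.180%, with the others between 0.127% and 0.155%. Within each number both subsets lay above the other 6 in the 2 genes. For transitions alone the exact p was 0.0312 for the whole stretch and 0.0222 for ATP6 only, and both missed the threshold after adjustment (adjusted exact p = 0.0781). Outside the 2 genes the transition load had an exact p of 0.0204, with no adjustment. With the number as a block, which was not planned, the exact p before adjustment was 0.0351 outside and 0.0589 for the whole stretch.

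No single allele of the 2 genes was called between subsets by edgeR, over all subsets at once or in any of 8 contrasts of 1 subset with the mean of the others, in which 0% of the 3487 alleles were called. At an unadjusted p under 0.05, 1 of the 186 alleles passed over all subsets, against 1.49% of all alleles. In the contrast of Thy 81 passed (43.5%), against 48.8% of all. 5 passed in Thy_6C3 (2.69%, against 3.13%), 5 in CD24_CD29 (2.69%, against 6.28%), 3 in CD24 (1.61%, against 1.2%) and 1 in CD29 (0.538%, against 0.889%). None passed in CD45, 6C3 and CD105, where 0.115%, 0.43% and 0.172% of all alleles did. DESeq2 called 0 of the 186 over all subsets (0.516% of all alleles), 99 for Thy (58.1% of all), 2 for CD24_CD29 (2.04% of all), 0 for Thy_6C3 (0.258% of all) and 0 in the other 5 contrasts. With the number as a block edgeR also called 0 of the 186 in each contrast, against 0.0574% of all alleles for Thy and 0% for the others. In edgeR's fit without Thy replicate 1, 118 of the 186 alleles were called over all subsets (63.4%, against 65.8% of all) and 126 for Thy (67.7%, against 68.7%), so both lay near the background, and 18 were called for CD24 (9.68%, against 4.62%). The high level of Thy replicate 2 moves with these calls, and its part in them was not tested.

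The smallest p over all subsets and in the contrasts of CD24 and CD24_CD29 belonged to C8297T, which changes serine 124 of ATP6 to leucine (S124L). It stood at 0.370% and 2.26% in the CD24_CD29 libraries of numbers 1 and 2, where the other subsets averaged 0.0720% and 0.160%. In CD24 it stood at 0.00490% and 0.00431%, the lowest value of each number. The contrast of CD24_CD29 had a log2 odds ratio of 3.87 and an adjusted p of 0.408 with edgeR, 0.0849 with the number as a block, and 0.0172 with DESeq2. C8052G (L42L) was the other allele DESeq2 called in CD24_CD29 (adjusted p = 0.00112), at 1.08% in replicate 1 and 0.0610% in replicate 2, and in the 14 other libraries it had at most 0.0644%.

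None of the alleles with the lowest p in the remaining contrasts passed with edgeR. A8011C (I29L) had 0.193% and 1.21% in Thy (adjusted p = 0.0985, edgeR), and A8298G (S124S) 1.06% and 0.648% in 6C3 (adjusted p = 0.997, edgeR). A8520G (L198L) had 0.134% and 0.104% in Thy_6C3, below the means of 0.476% and 0.461% elsewhere. C8241T (A105A) had the smallest p for CD45 and CD29, with 0.248% and 1.02% in CD29.

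Alleles confined to 1 library of a number at the 1% threshold were found in 10 of the 16 libraries and in none of CD45 and CD105. CD24_CD29 had the most apart from Thy replicate 2, 7 in number 1 and 11 in number 2, and Thy_6C3 replicate 2 had 7. The CD24_CD29 libraries were also the shallowest of each number, with a mean coverage of 13260 and 6733, and apart from Thy replicate 2 had the most counted alleles over the whole genome, 280 and 416. The part of depth in these counts was not tested. The highest in CD24_CD29 were C8571T (T215T) in replicate 1 at 2.05% (exact interval 1.80% to 2.32%) and C8046T (N40N) in replicate 2 at 2.29% (1.94% to 2.67%), both synonymous in ATP6. In the other libraries of the same number they reached at most 0.334% and 0.128%, and in the other number at most 0.849% and 0.209%.

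In Thy_6C3 replicate 2, C7913T of ATP8 (P50S) was the highest such allele, and the other libraries of number 2 had at most 0.170%. T8264A (V113E) in Thy replicate 1 stood at 1.21% (1.09% to 1.34%), with at most 0.363% in the others of its number and 0.634% in number 2. The remaining ones lay less far from the rest: A8514T (L196F) in Thy_6C3 replicate 1 at 1.38%, A8520G (L198L) in CD29 replicate 2 at 1.23%, T8017C (F31L) in 6C3 replicate 2 at 1.2%, T8325C (T133T) in CD24 replicate 2 at 1.14% and T7975C (F17L) in 6C3 replicate 1 at 1.04%. In the other number A8514T reached up to 1.14% and A8520G up to 1.01%, so both also passed 1% there. In Thy replicate 2 the highest of 127 was T7862G (F33V in ATP8) at 2.63%, where no other library passed 0.762%.

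T7767C (M1T in ATP8) was the highest of 18 possible alleles in the 2 start codons, at 0.642% in any library but Thy replicate 2. None of the 18 was counted in any library, where 7.36% of all alleles of the 2 genes were. Without Thy replicate 2, 2.34% of all alleles of the 2 genes were counted, and 3 of 87 in the start codons of the 11 other protein genes. Of 18 in the 2 stop codons, 3 were counted, all in Thy replicate 2 alone, where 7.36% of all alleles of the 2 genes were counted in any library. Among these 3 was T7967G, in the overlap, which removes the stop codon of ATP8 and makes a stop codon in ATP6. It stood at 1.39% in Thy replicate 2 and at most 0.318% elsewhere. The last base of ATP6, 8607, is also the first base of COX3. Apart from alleles that lie in a start or stop codon of either gene, such as T7967G, 134 alleles make a stop codon in ATP8 or ATP6 (44 and 90). Of these 134, 9 were counted, and 1 of them outside Thy replicate 2. That 1 was T8235A, which turns serine 103 of ATP6 into a stop (S103*), at 1.29% in CD24_CD29 replicate 2 and at most 0.555% elsewhere. C8062T (Q46* in ATP6) reached 1.45% in Thy replicate 2. The 9 and the 1 stand beside shares of 7.36% and 2.34% over all alleles of the 2 genes. Outside Thy replicate 2, the 11 other protein genes had 14 of 388 stop-gaining transitions and 12 of 1275 such transversions counted.

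Transitions that change an amino acid were set beside synonymous ones by the mean fraction per possible allele in each library, as a description with no test. In ATP8 only, amino acid changes had the higher mean in 16 of 16 libraries, with a median ratio of 1.67 (range 1.28 to 2.27). In ATP6 only the median ratio was 0.963 (0.897 to 1.09), with the amino acid changes lower in 11 of 16 libraries, and in the 11 other protein genes it was 1.06 (0.983 to 1.13). Without the alleles counted in any library the ratio of ATP8 only was 1.37. The 59 synonymous transitions of ATP8 only were 59.3% A>G and the 89 amino acid changes 28.1%. Within C>T the median over libraries was 0.160% for amino acid changes and 0.0358% for synonymous ones. The 26 amino acid alleles of C>T include C7893T, with a mean of 3.76% in number 2. Within A>G the medians were 0.102% and 0.0781%, within T>C 0.162% and 0.197%, and within G>A, with 1 synonymous allele, 0.0423% and 0.0885%. The order was thus not the same in every type of change.

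**Figure D5:**
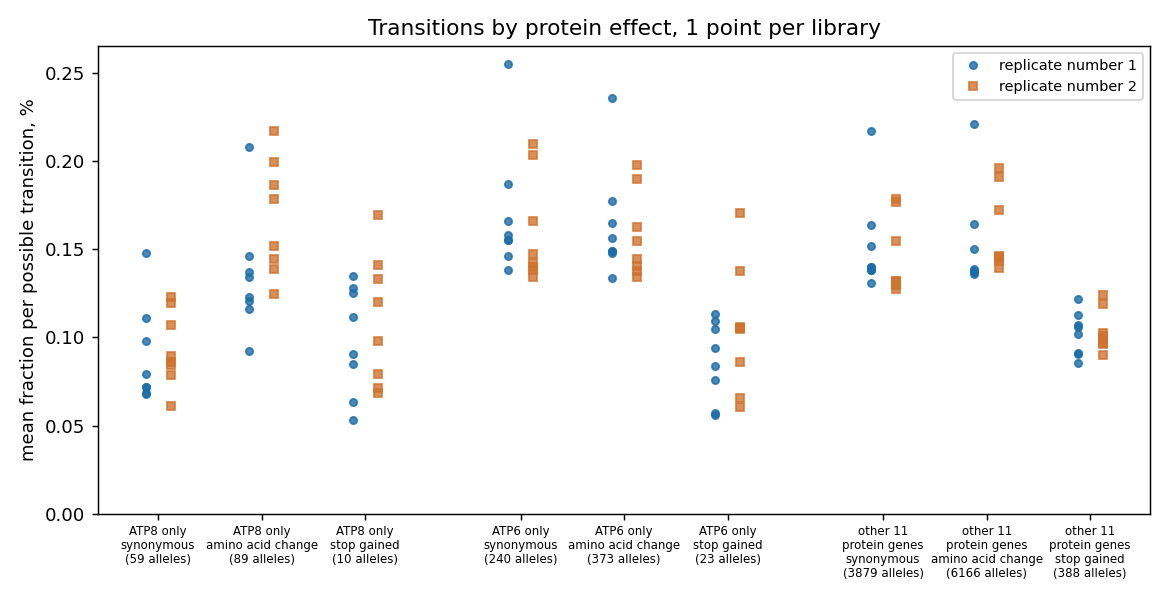
Mean fraction per possible transition (%) by protein effect in ATP8 only, ATP6 only and the 11 other protein genes, with 1 point per library, circles for number 1 and squares for number 2, and the number of possible alleles under each group. In ATP8 only the amino acid changes have a median of 0.142% against 0.0851% for synonymous ones, and in ATP6 only the medians are 0.152% and 0.155%.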

How the data were processed

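In 16 ATAC-seq libraries, the authors deposited raw counts: the coverage of each mitochondrial position and the reads with each other base there. The submitters' processing notes list BWA 0.7.17, cutadapt 2.10 and bcl2fastq 2.20 and the builds GRCm38 and mm10. Read filters, duplicate removal and the treatment of nuclear copies, each of which can change a low fraction, were not given in the sources used here. Per the labels' protocols, reads were paired-end, 100 bp.

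The fraction was an allele's count over the coverage. Gene bounds came from RefSeq (GRCm38.p6), protein changes from the vertebrate mitochondrial code (Biopython 1.88), in which AGA and AGG are stops. edgeR 4.0.16 (R 4.3.3) took non-reference and reference counts as a pair of columns per library. Its fit for subsets had terms for libraries and, in non-reference columns, for subsets (8 residual degrees of freedom). The test between numbers and the replicate block came from a fit with a further term for the number (7 residual degrees of freedom). DESeq2 1.42.0 was an alternative. Loads were tested over 2027025 pairings of libraries, adjusted over 5 measures. The rest used Python 3.11.15 with pandas 2.3.3, scipy 1.17.1, numpy 2.4.6 and matplotlib 3.10.9.

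Deviations of allele fractions from the subset means correlated between all 28 pairs of subsets (0.343 to 0.863 over 3487 alleles), so the replicate numbers pair the libraries. Alternatives were the replicate block, other thresholds and filters, transitions only, and each library or the Thy subset left out. The alleles and lists were chosen with earlier results of these data known. Named alleles were those counted in all 8 libraries of a number, the 5 highest means of each number, those called by edgeR, counted transitions of the overlap, counted start, stop and stop-gaining alleles other than A>C and T>G, the highest allele of each library among those counted once in a number, and the smallest p of each test.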

Additional observations from a re-analysis of the deposited data

Results flagged for a closer look

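In 48 groups of 8 libraries of a replicate number, 12 values lay far from the other 7 by Dixon's criterion for the gap to the nearest library, where chance gives about 1 in 20. 10 of the 12 came from Thy libraries. In number 2, Thy stood apart in the load of the whole stretch (1.13%, next 0.499%), of ATP8 only (1.19%), of the overlap (1.34%) and of ATP6 only (1.11%), and in the number of counted alleles (135, next 18). Thy replicate 2 was also high for T7976G (0.352%, next 0.0605%), T8211G (1.58%, next 0.966%), A8266C (0.603%, next 0.190%) and A7867T (0.726%, next 0.399%), the first 3 of which are A>C or T>G. A7867T was high in Thy replicate 1 as well (1.83%, next 1.11%). T7827C stood apart in CD24_CD29 replicate 2 (0.264%, next 0.128%), and G8359A in CD24 replicate 2 (0.492%, next 0.268%).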

How the results depend on the processing

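With the replicate numbers as a block, which pairs the libraries, 0 alleles of ATP8 and ATP6 were called between subsets, as without it, and the adjusted exact p of the load stayed at 0.462 for the whole stretch and 0.395 for the overlap. Without the Thy subset the block gave 0.0412 for the whole stretch and for ATP6 only. The block tests of the load were not among those planned. Leaving out 1 library at a time gave adjusted exact p from 0.00729 to 0.582 for the load of the whole stretch, of ATP8 only and of ATP6 only and for the number of counted alleles, and from 0.0790 to 0.955 for the overlap. The lowest of the first 4 came without Thy replicate 1, where the lone Thy library adds nothing to the spread within subsets and is assumed to vary like the other subsets. Without Thy replicate 1, 118 alleles were called over all subsets, 126 for Thy and 18 for CD24 (65.8%, 68.7% and 4.62% of all alleles were called there), so these counts ran from 0 to 118, 0 to 126 and 0 to 18. They were 0 throughout for the other 6 contrasts. DESeq2 called 99 alleles for Thy and 2 for CD24_CD29. Between numbers, 17 to 18 alleles were called with each library left out, 19 with DESeq2, and 7 of 22 among alleles at 2% or more (29.9% of all). T8601C lost its call in the largest number of settings, T7976G without the fraction filter (adjusted p = 0.0965) and T8313C without subset terms (adjusted p = 0.0643). The ratio of amino acid to synonymous transitions in ATP8 only was 1.37 without counted alleles and 1.32 over all changes. With each library left out it ran from 1.63 to 1.70, that of ATP6 only from 0.959 to 0.966 and that of the other genes from 1.04 to 1.08. No result reversed. Where not stated, the cause was not tested. Depth limits fractions near 0.0446% in CD24_CD29 replicate 2.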
